A study of Mus musculus with 12 samples.

Results

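Shelterin is the protein complex that covers the TTAGGG repeats at mouse chromosome ends, and its 7 genes in the mouse are Terf1, Terf2, Terf2ip, Tinf2, Pot1a, Pot1b and Acd. All probes annotated to these symbols were taken, which gave 16 of the 38502 probes on the array. There were 4 probes for Terf2, 3 each for Terf2ip and Pot1b, 2 each for Pot1a and Acd, and 1 each for Terf1 and Tinf2. Of the 16 probes, 15 lay above the background limit of 6.57 log2 units on at least 3 of 12 arrays. The probe for Tinf2 did so on 0 arrays.

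Terf1 and Terf2 encode the proteins TRF1 and TRF2, which bind double-stranded telomeric DNA, while the POT1 proteins bind the single-stranded overhang. Tinf2 encodes TIN2, which bridges TRF1 and TRF2, and Acd encodes TPP1, which links TIN2 to POT1 and helps to bring telomerase to the chromosome end. Terf2ip encodes RAP1, which binds through TRF2. Without TRF2 chromosome ends activate the ATM kinase and are joined to each other, and without POT1 they activate the ATR kinase. Mice carry a pair of POT1 genes where humans carry a single one. POT1a represses ATR signalling, and POT1b limits the trimming of the end.

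The arrays hold RNA from mouse MLL-AF9 leukaemia stem cells, sorted for GFP and the surface proteins Kit and Fcgr and against lineage markers. MLL-AF9 joins a pair of human genes in a translocation found in acute leukaemia, and every group carried it together with GFP. C57BL/6J recipients aged 6 to 8 weeks, irradiated with 5.5 Gy, had been given 10000 bone marrow progenitors (LKS cells, which carry Kit and Sca1 but no lineage markers) that were either WT or G3 Terc-/-, and cells were taken from the marrow when each leukaemia began. Terc encodes the RNA template of telomerase. There were 6 WT and 6 Terc-/- arrays, and the labels divide the Terc-/- arrays by a phosphorylation status. This was p-p53 on 3 arrays, p-Foxo3a on 2 arrays and not given on 1 array, replicate 5. The arrays of WT replicates 5 and 6 were nearly identical, as were those of Terc-/- replicates 2 and 6, and each pair was averaged into 1 sample. This left 5 samples for each genotype. The p-p53 group then held replicate 3 and the averaged pair, and the p-Foxo3a group replicates 1 and 4. No label ties a sample to an animal of its own. The p-values therefore reflect the spread among these samples alone, and their number limits the precision.

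Between 19244 and 19425 probes per array lay above the limit. No probe was annotated to Terc, so the genotype labels were not checked, and the probe for Tert was above the limit on 0 arrays. Of 8 genes of the sorted population, 7 had a probe and all 7 were above the limit, Kit, Fcgr2b and Mpo among them. Fcgr3, another of the Fcgr genes, had no annotated probe and was not measured. Of lists for other cells, 2 of 5 T cell genes were above the limit (mean 6.31 to 6.69 over the 10 samples, Cd3e not above it). So were 3 of 5 megakaryocyte genes (6.96 to 7.93, Pf4 not above it) and 4 of 5 stroma and endothelium genes (7.01 to 7.70). Of 5 B cell genes 3 had a probe, and 2 were above the limit (8.48 to 9.09). Of 5 erythroid genes 3 had a probe, and all 3 were above it (6.55 to 7.17). All 6 late neutrophil genes had lower means in Terc-/- samples (median -1.11), as had all 5 measured macrophage genes (-0.33) and all 9 measured cell division genes (-0.43), and 0 of these passed the threshold in limma. Their part in the shelterin differences was not tested. Mean levels of the late neutrophil genes lay between 12.01 and 13.10 in WT and between 10.49 and 13.43 in Terc-/- samples, and those of the macrophage genes between 8.35 and 8.87 and between 7.13 and 8.60. Those of the cell division genes lay between 10.21 and 10.67 in WT and between 9.44 and 10.41 in Terc-/- samples. In bulk RNA such as this, fewer cells of a type and less RNA per cell cannot be told apart.

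By their brightest probes, though not by their dimmer ones, Pot1a and Pot1b had the widest ranges over the samples. The start-site windows of these copies of a single gene are therefore shown. Each holds 300 bases, mostly before the gene's start (RefSeq, GRCm38.p6), on the minus strand, at chr6:25809169-25809468 for Pot1a and chr17:55712575-55712874 for Pot1b. Capitals mark any match, on either strand, to 6 short motifs, namely the telomere repeat TTAGGG, the cyclic AMP response element TGACGTCA, the ETS core CCGGAAG, the NRF1 motif GCATGCG, the GC box GGGCGG and the CCAAT box. The NRF1 motif and its reverse complement overlap in both windows, as do CCAAT and its reverse complement in that of Pot1b, which has a further start site 12 bases away.
Pot1a: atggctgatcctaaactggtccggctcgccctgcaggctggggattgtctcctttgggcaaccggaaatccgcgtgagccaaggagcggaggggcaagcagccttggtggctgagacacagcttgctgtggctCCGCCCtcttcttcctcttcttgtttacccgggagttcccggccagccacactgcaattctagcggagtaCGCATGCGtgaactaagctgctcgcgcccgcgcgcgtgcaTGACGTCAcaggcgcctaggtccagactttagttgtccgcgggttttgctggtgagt
Pot1b: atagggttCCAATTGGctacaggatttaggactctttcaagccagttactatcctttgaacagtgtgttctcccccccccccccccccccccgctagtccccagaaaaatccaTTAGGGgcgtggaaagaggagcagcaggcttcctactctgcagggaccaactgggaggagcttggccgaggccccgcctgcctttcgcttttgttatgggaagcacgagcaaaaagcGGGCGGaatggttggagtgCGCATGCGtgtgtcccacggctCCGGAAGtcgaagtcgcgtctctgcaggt
The NRF1 motif was found in both windows and in those of none of the other 4 members that the table holds (Terf2, Terf2ip, Tinf2 and Acd), against 3.58% of all 32851 windows. The cyclic AMP response element was found for Pot1a and Tinf2 (1.79% of all windows), and TTAGGG for Pot1b alone among the members (10.6%). A match describes the letters only.

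Terf1 and Tinf2 were at or near background. Terf1 (ILMN_1256480) read 6.26, 6.68, 6.23, 6.40 and 6.31 log2 units in WT replicates 1, 2, 3, 4 and the averaged 5 and 6. In Terc-/- samples it read 6.59 in replicate 1, 6.29 in the averaged 2 and 6, 6.57 in replicate 3, 6.30 in replicate 4 and 6.45 in replicate 5. It was above the limit in 1 WT and 2 Terc-/- samples, and the groups overlapped. Tinf2 (ILMN_2602616) lay between 6.23 and 6.35 in WT and between 6.01 and 6.38 in Terc-/- samples, all under the limit, so no fold change is given for it.

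Terf2 had 4 probes, all above the limit on 8 to 12 arrays. The brightest, ILMN_2912318, read 9.84, 10.08, 9.80, 9.69 and 9.73 in the WT samples in the same order. In Terc-/- samples it read 9.80 in replicate 1, 9.60 in the averaged 2 and 6, 9.76 in replicate 3, 9.63 in replicate 4 and 9.62 in replicate 5. WT replicate 2 was the highest, 3 of 5 Terc-/- samples lay under every WT sample, and the groups overlapped. Terc-/- samples averaged 9.68 ± 0.09 and WT samples 9.83 ± 0.15 (SD, n = 5 each). They differed by -0.15 ± 0.09 (SE) on the log2 scale, with an adjusted p of 0.712 in limma. Its 95% interval ran from -0.34 to 0.05, that is, from 1.27-fold lower to 1.03-fold higher. Without WT replicate 2 the difference was -0.085.

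The Terf2 probes did not share a direction. The annotation pairs ILMN_2912318 and ILMN_2623712 with the RefSeq transcript, and these had lower means in Terc-/- samples (-0.15 and -0.08). It pairs ILMN_1222324 and ILMN_1223251 with cDNA clones, and these had higher means (0.08 and 0.05). Without Terc-/- replicate 1 ILMN_2623712 differed by -0.16 and ILMN_1222324 by 0.14, and without replicate 4 by -0.032 and 0.020. Over the 10 samples the correlation between ILMN_1222324 and ILMN_2623712 was -0.64, between the clone probes 0.74, and between the transcript probes 0.42. These correlations describe the probes of a single gene over the same 10 samples and were not tested. In Terc-/- replicate 1 ILMN_2623712 was at its highest (9.25) while ILMN_1222324 was close to its lowest (7.07), and in replicate 4 the reverse held (8.75 and 7.55). Where on the gene each probe lies is not given in the tables used here.

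**Figure D1:**
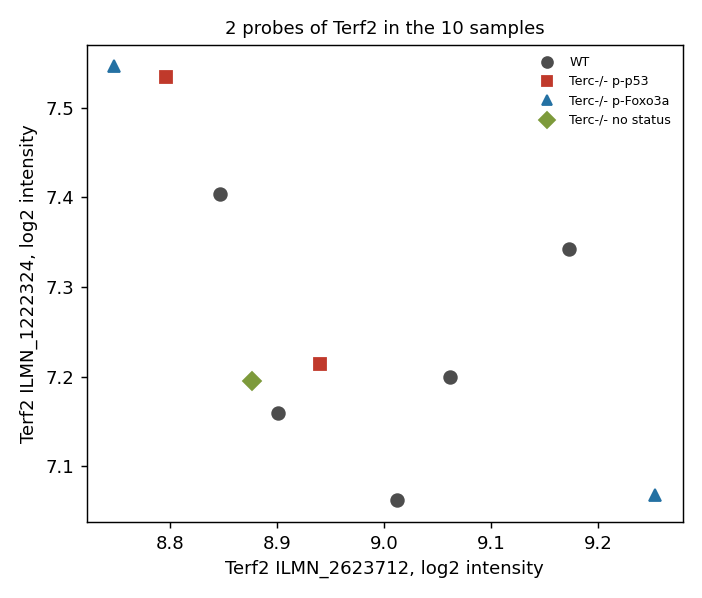
Log2 intensity of 2 Terf2 probes in the 10 samples, ILMN_2623712 on the x axis and ILMN_1222324 on the y axis, each point a sample with its group as colour and shape. The points run from upper left (8.75 and 7.55 in Terc-/- replicate 4) to lower right (9.25 and 7.07 in Terc-/- replicate 1).

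Terf2ip had 3 probes, each above the limit on all arrays. The brightest, ILMN_2610435, read 8.66, 8.76, 8.38, 8.46 and 8.46 in WT replicates 1, 2, 3, 4 and the averaged 5 and 6. In Terc-/- samples it read 8.42 in replicate 1, 8.49 in the averaged 2 and 6, 8.61 in replicate 3, 8.43 in replicate 4 and 8.38 in replicate 5. WT replicates 1 and 2 were above every Terc-/- sample and the other WT samples lay among them. The difference was -0.08 ± 0.09 (SE; 95% interval -0.28 to 0.12, adjusted p = 0.844) and -0.025 without WT replicate 2, and those of the other probes, ILMN_2604776 and ILMN_1235615, were -0.03 and -0.04.

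Acd was clearly detected by both of its probes. ILMN_2930819 read 12.07, 11.85, 12.08, 12.11 and 12.07 in the WT samples. In Terc-/- samples it read 12.05 in replicate 1, 12.05 in the averaged 2 and 6, 12.17 in replicate 3, 11.85 in replicate 4 and 11.83 in replicate 5. WT replicate 2 and Terc-/- replicates 4 and 5 lay below the rest, so the groups overlapped. Terc-/- samples averaged 11.99 ± 0.15 and WT samples 12.04 ± 0.10 (SD, n = 5 each), and the 95% interval of the difference, -0.24 to 0.15, leaves room for at most 1.18-fold lower or 1.11-fold higher levels. The difference of -0.05 became -0.0086 when Terc-/- replicate 5 was left out and -0.094 when WT replicate 2 was. ILMN_1219304 had the smallest p of all shelterin probes in this comparison. It averaged 7.94 ± 0.09 in Terc-/- and 8.10 ± 0.11 in WT samples (SD, n = 5 each), a difference of -0.16 ± 0.08 (SE, adjusted p = 0.680). The arrays of Terc-/- replicates 2 and 6, counted as 1 sample, differed by -0.54 on this probe, and leaving out replicate 2 or replicate 6 gave a difference between genotypes of -0.11 or -0.21.

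Pot1a was low but above the limit on all arrays with ILMN_1256169. This probe read 6.63, 6.64, 6.94, 6.90 and 7.10 in WT replicates 1, 2, 3, 4 and the averaged 5 and 6. In Terc-/- samples it read 7.40 in replicate 1, 6.97 in the averaged 2 and 6, 6.82 in replicate 3, 6.88 in replicate 4 and 7.02 in replicate 5. Terc-/- replicate 1 stood above all other samples, and the other 4 Terc-/- samples lay within the WT range. The difference was 0.18 ± 0.13 (SE; 95% interval -0.11 to 0.47, adjusted p = 0.761) and 0.08 without Terc-/- replicate 1. The other probe, ILMN_1259980, was above the limit on 3 arrays and differed by -0.0021.

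In Terc-/- replicate 1 the genes around Pot1a were raised as well. Pot1a was 0.53 above its mean in the other 9 samples there. The median of its 20 nearest measured genes was 0.43 above, and that of 417 genes of chromosome 6 was 0.36 above. In the other samples the neighbours' median lay between -0.11 and 0.01, while Pot1a lay between -0.34 and 0.19. WT replicates 1 and 2 had the lowest Pot1a values (-0.34 and -0.32) with neighbours at 0.01 each. Terc-/- replicate 1 also had the lowest mean of the 9 cell division genes (9.44). The part of these in its Pot1a value was not tested.

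**Figure D2:**
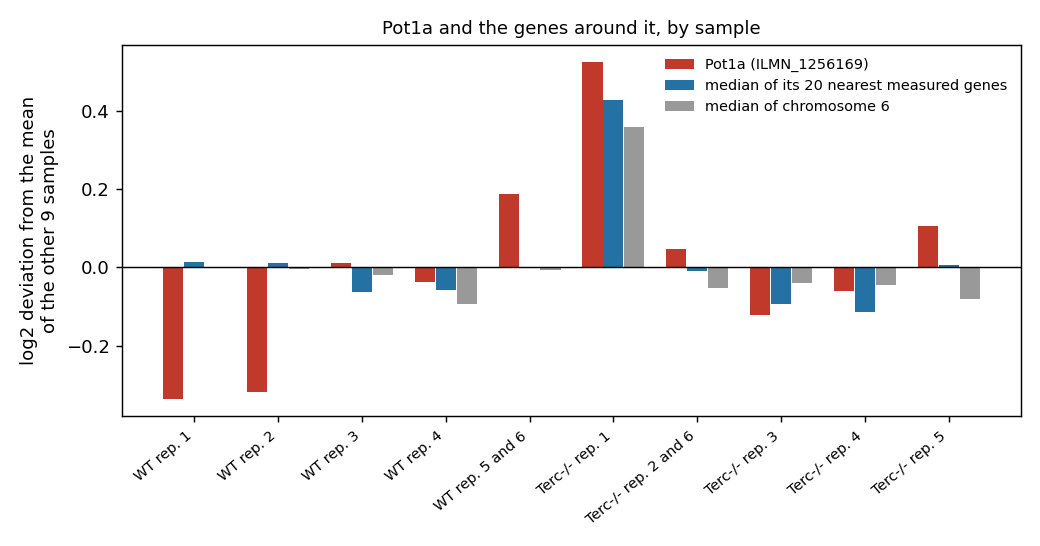
Log2 deviation of each sample from the mean of the other 9 samples, for Pot1a (red), the median of its 20 nearest measured genes (blue) and the median of chromosome 6 (grey). All 3 bars are high in Terc-/- replicate 1 (0.53, 0.43 and 0.36), while the low Pot1a values of WT replicates 1 and 2 stand beside neighbours near 0.

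Pot1b had the widest spread of the shelterin genes, and it lay within WT. ILMN_1246004 read 6.94, 6.98 and 7.03 in WT replicates 1, 2 and 3, but 7.81 in replicate 4 and 7.77 in the averaged 5 and 6. In Terc-/- samples it read 7.47 in replicate 1, 7.56 in the averaged 2 and 6, 7.55 in replicate 3, 7.57 in replicate 4 and 7.37 in replicate 5. Every Terc-/- sample thus lay in the gap between the lower 3 and the upper 2 WT samples. The SD was 0.44 in WT and 0.08 in Terc-/- samples (n = 5 each), and the SD over all 10 samples exceeded that of 80.7% of probes above the limit. The difference was 0.20 ± 0.18 (SE), with a 95% interval of -0.20 to 0.60 and an adjusted p of 0.806 in limma. A level up to 1.52-fold higher in Terc-/- samples is thus within its error, or up to 2.07-fold with background subtracted. The difference was 0.11 without WT replicate 1 and 0.32 without WT replicate 4. Relative to the other 9 samples, the averaged WT replicates 5 and 6 were 0.41 higher for Pot1b, 0.26 for the median of its 20 nearest measured genes and 0.12 for that of 465 genes of chromosome 17. In WT replicate 4 Pot1b was 0.45 higher, with its neighbours at -0.02 and the chromosome at -0.06. The part of the neighbourhood in the Pot1b values was not tested. The other probes, ILMN_1227495 and ILMN_2676040, did not show the division of the WT samples, with SDs in WT of 0.12 and 0.20 and correlations with ILMN_1246004 of 0.35 and -0.12. As with Pot1a, the brightest probe is paired with a cDNA clone and the dimmer ones with the RefSeq transcript.

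**Figure D3:**
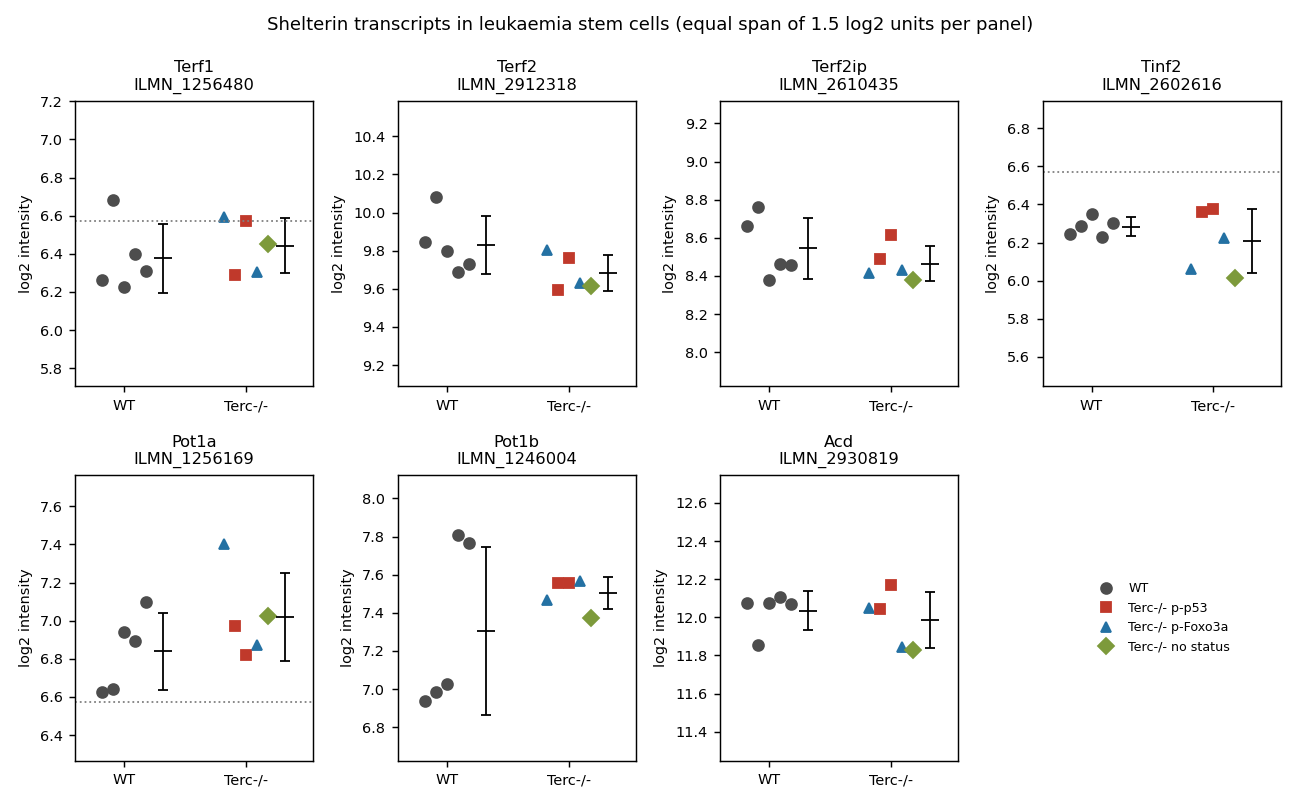
Log2 intensity (y axis) of 1 probe for each of the 7 genes in 5 WT and 5 Terc-/- samples, with colour and shape for the group, mean ± SD beside the points, and the background limit of 6.57 as a dotted line where it falls in the panel. Every panel spans 1.5 log2 units, and the WT and Terc-/- points overlap in each, with Pot1b widest (6.94 to 7.81 in WT).

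Over all shelterin probes, 0 of 15 passed the threshold between Terc-/- and WT samples in limma, with 0% of all 21913 tested probes passing (percent called). At an unadjusted p under 0.05 the count was also 0 of 15, beside 7.43% of all probes. The groups did not overlap in 0 of 15 probes, beside 1.26% of all. Means were higher in Terc-/- samples for 6 probes and lower for 9, with a median difference of -0.03, against -0.0093 over all tested probes. The 95% intervals of all 15 probes lay between -0.34 and 0.60, so each leaves out a 2-fold change in either direction on this scale. The scale holds background that was not subtracted and so understates changes of dim probes. With the background level subtracted, the intervals of the 15 probes ran from -0.55 (Pot1b, ILMN_2676040) to 1.05 (Pot1b, ILMN_1246004). The latter interval no longer leaves out a 2-fold rise, and that of Pot1a (ILMN_1256169) reached 0.98. The offset added in the subtraction still shrinks changes of probes near background. For such dim probes these intervals therefore cannot show that a 2-fold change is left out. Among them are Terf1 (-0.46 to 0.77), Terf2 ILMN_1223251 (-0.30 to 0.67) and Pot1b ILMN_2676040 (-0.55 to 0.47). The same holds for both Pot1a probes, ILMN_1256169 (-0.19 to 0.98) and ILMN_1259980 (-0.50 to 0.47). Within the pairs of near-identical arrays these 15 probes differed by a median of 0.15 and by up to 0.54.

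**Figure D4:**
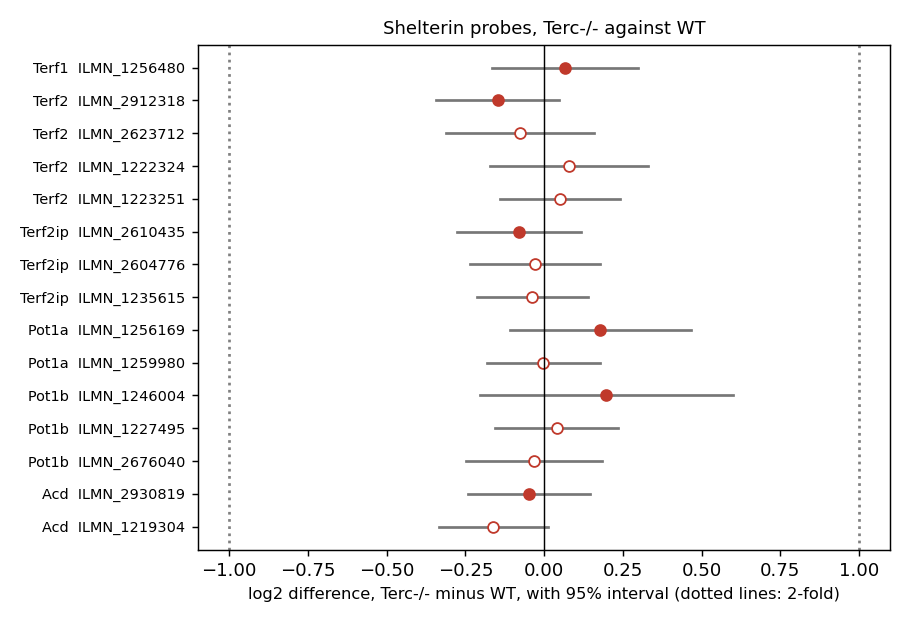
Log2 difference between Terc-/- and WT samples (x axis) for the 15 probes above the limit, with 95% intervals as lines, filled dots for the brightest probe of a gene and open dots for the others. On this scale, without background subtracted, all intervals hold 0 and lie inside the dotted lines of a 2-fold change.

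The labelled phosphorylation status was compared in a fit of 9 samples without replicate 5. Comparisons with WT share the same WT samples. In p-p53 samples Pot1b (ILMN_1246004) read 7.55 and 7.56 and in p-Foxo3a samples 7.47 and 7.57, with differences from WT of 0.25 ± 0.26 and 0.21 ± 0.26 (SE). Terf2 (ILMN_2912318) differed by -0.15 ± 0.13 and -0.11 ± 0.13, Terf2ip (ILMN_2610435) by 0.0055 ± 0.12 and -0.12 ± 0.12, and Acd (ILMN_2930819) by 0.07 ± 0.11 and -0.09 ± 0.11. Pot1a (ILMN_1256169) differed by 0.06 ± 0.18 in p-p53 and by 0.30 ± 0.18 in p-Foxo3a samples. The latter was 0.03 without Terc-/- replicate 1, the sample with the raised neighbourhood, and 0.56 without replicate 4. Each of these omissions leaves 1 p-Foxo3a sample, which is assumed to vary like the other groups. Terf1, near background, differed by 0.05 ± 0.15 and 0.07 ± 0.15. No shelterin probe passed in either comparison, with 0% of all probes passing in each. The smallest adjusted p was 1.00 for p-p53 and 0.640 for p-Foxo3a samples. At an unadjusted p under 0.05 the count was 0 of 15 probes in both, beside 2.65% and 9.41% of all probes. No member had groups without overlap in either, beside 8.09% and 12.3% of all probes.

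The direct comparison of p-p53 with p-Foxo3a samples gave 0 of 15 probes past the threshold and 0 of 15 at an unadjusted p under 0.05, beside 0% and 4.87% of all probes. The groups of 2 samples did not overlap for 2 probes, beside 29.7% of all, and both belong to Terf2ip. They pointed in opposite directions. ILMN_2610435 was higher in p-p53 samples (8.49 and 8.61 against 8.42 and 8.43) by 0.13 ± 0.15 (SE), and ILMN_2604776 was lower (6.70 and 6.84 against 6.90 and 6.93) by -0.14 ± 0.16. The widest interval, that of Pot1b (ILMN_1246004), ran from -0.68 to 0.76. With 2 samples a side a change of up to 1.69-fold is thus within the error on this scale. With background subtracted its interval ran from -1.13 to 1.24, which no longer leaves out a 2-fold change in either direction. That of Pot1a (ILMN_1256169) then ran from -1.45 to 0.54 around a difference of -0.46, which no longer leaves out a 2-fold fall.

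Among themselves the shelterin genes did not share a pattern over the 10 samples that passed a test. Of 15 pairs of the 6 genes above the limit on at least 3 arrays, each by its brightest probe, 8 had a positive and 7 a negative Pearson's r, and 0 passed in a permutation test with 100000 resamples after adjustment over the pairs (3 had an unadjusted p under 0.05). Terf2 and Terf2ip, whose proteins bind each other, had the highest r of 0.73 (Spearman's rho 0.42, permutation p = 0.0166 and 0.232, adjusted p = 0.124 and 0.789). Both genes lie on chromosome 8. Without the 2 samples farthest from the Terf2 median r was 0.49, and it was 0.83 within WT and 0.33 within Terc-/- samples. Terf2ip and Pot1a had the lowest, -0.73 (rho -0.72, permutation p = 0.0149 and 0.0230, adjusted p = 0.124 and 0.345). Their r was -0.42 without the 2 samples farthest from the Terf2ip median. Terf2 and Pot1b had r = -0.65 (rho -0.64, permutation p = 0.0342 and 0.0544, adjusted p = 0.171 and 0.408). Their r was -0.54 without the 2 samples farthest from the Terf2 median. After removal of the genotype means the first pair had r = 0.70, the second -0.70 and the third -0.60. The highest r was then that of Terf1 and Terf2, 0.78 (permutation test, adjusted p = 0.109), with most Terf1 values under the limit. Pot1a and Pot1b, the paired copies, had r = 0.49 (rho 0.39, permutation p = 0.155 and 0.263, adjusted p = 0.461 and 0.789). Their r was 0.50 without the 2 samples farthest from the Pot1a median.

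The gene most like Pot1a over the 10 samples, among 11888 genes, was Exoc4 (r = 0.94), a subunit of the exocyst that also lies on chromosome 6, followed by Sugp2 (0.92). Most like Terf2 were Sptb, an erythroid spectrin (0.93), and Pdlim5 (0.92), and most like Terf2ip were Cks2, a partner of cyclin-dependent kinases (0.93), and Tmprss6 (0.92). Pot1b was nearest to the translation factor Eef1a1 (0.91) and Tnrc6b (0.91), Acd to Ankhd1 (0.90) and Insig2 (0.89), and Terf1 to the actin-branching subunit Actr3 (0.90) and Ankrd28 (0.89). Most Terf1 values lie under the limit, so its ranking is largely one against background. Tmprss6 and Sptb were themselves near the limit, with lowest values of 6.39 and 6.61, and Eef1a1 varied only between 15.73 and 15.86. These are the highest of 11888 values over 10 samples for each gene.

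Other genes of the telomere were read from lists, each gene by its brightest probe above the limit. No gene of any list passed the threshold between Terc-/- and WT samples. All 3 genes of the CST complex (Ctc1, Stn1 and Ten1), which ends telomerase action and fills in the opposite strand, had slightly lower means, by -0.0022 ± 0.22, -0.0060 ± 0.16 and -0.02 ± 0.13 (SE). With all 12 arrays as separate samples these differences were positive (0.14, 0.05 and 0.06). Of 13 measured partners of shelterin and telomere replication factors, 5 were higher and 8 lower (median -0.03). The members of smallest p were Rlim, a ubiquitin ligase for TRF1 (0.25 ± 0.08), Pinx1, which binds TRF1 and inhibits telomerase (-0.42 ± 0.20), and the helicase Recql4 (-0.31 ± 0.25, and -0.15 without Terc-/- replicate 1). Their adjusted p-values were 0.610, 0.676 and 0.772. Over all 11888 genes 54.0% were lower in Terc-/- samples, with a median of -0.01.

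Of 19 measured repair and signalling factors that act at unprotected ends, 5 were higher and 14 lower (median -0.05). The checkpoint kinase Chek2 (-0.51 ± 0.12, SE), the kinase of end joining Prkdc (0.31 ± 0.15) and the nuclease Mre11a (-0.32 ± 0.17) had the smallest p (adjusted p = 0.541, 0.681 and 0.681). Without Terc-/- replicate 1 the last was -0.18. Among telomerase and H/ACA proteins 6 of 9 were higher and 3 lower (median 0.03), with Parn (0.25 ± 0.20), a ribonuclease that matures telomerase RNA, Shq1 (0.18 ± 0.16) and Wrap53 (-0.07 ± 0.09) of smallest p. Of 9 telomeric chromatin and telomere-binding factors 4 were higher and 5 lower (median -0.02), led by Cbx5 (-0.39 ± 0.11), which encodes the heterochromatin protein HP1 alpha, then Cbx3 (0.20 ± 0.19) and Smchd1 (-0.12 ± 0.12). Prkdc and Parn lie on chromosome 16, whose median in Terc-/- replicate 1 was 0.35 above the other samples. Without that sample their differences were 0.18 and 0.13. Shq1 and Cbx3 lie on chromosome 6, as Pot1a does, and their differences without that sample were 0.18 and 0.17. The part of either chromosome in these differences was not tested. The difference of Shq1 was 0.086 without Terc-/- replicate 4 and 0.31 without replicate 3. That of Cbx3 was 0.082 without WT replicate 1 and 0.32 without WT replicate 3. Wrap53 differed by -0.033 without Terc-/- replicate 1, Smchd1 by -0.22 without WT replicate 2 and -0.076 without WT replicate 3, and Parn by 0.38 without WT replicate 1. All 9 measured cell division genes had lower means in Terc-/- samples (median -0.43), led by Ndc80 (-0.51 ± 0.15), Ncapg (-0.50 ± 0.15) and Cenpf (-0.35 ± 0.13), with adjusted p-values of 0.610, 0.610 and 0.643.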

How the data were processed

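Values were the authors' deposited log2 intensities of 12 Illumina arrays. Per the submitters' processing notes GenomeStudio was used. Its version is not given in the sources used here, nor is how values were normalized or background was treated. The log base was read from the range of the values, and sorted values differed by at most 0.09 between arrays. A second table, of 24 columns whose names match no sample's labels, was not used.

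The mode of all values was 6.35 with a lower-side SD of 0.13, and the limit was set at 6.57, the level that a share of 0.05 of normal background would exceed. Probes above it on at least 3 arrays, 21913 in all, were tested, and the brightest stood for a gene in lists. Gene names came from the platform annotation (1 gene for 32034 probes, several for 16, none listed for 6452), updated through Entrez identifiers for 31976 probes with the gene table of GRCm38.p6. Arrays whose correlation over probes was at least 0.996, against at most 0.990 in the rest of 66 pairs, were averaged (2 pairs).

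Tests were two-sided fits of limma 3.58.1 (lmFit, then eBayes; R 4.3.3), with Benjamini-Hochberg adjustment over all tested probes and a threshold of 0.05. The fit of Terc-/- against WT samples was also run on simulated data, and the comparisons by phosphorylation status were not. Promoter windows matched 6 of 7 genes. The shelterin genes, the lists, the cell type markers and the rule for named genes (the 3 list members of smallest p, and the 2 genes of highest correlation with each shelterin gene) were chosen with earlier results of these data known. Alternatives were all arrays as samples, a replicate block, other filters, 1 probe per gene, an intensity trend, array weights, renormalization, median centring, background subtraction with an offset of 16, and leaving out each sample. No file maps slides to samples, so a slide block was not run.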

Additional observations from a re-analysis of the deposited data

Results flagged for a closer look

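In 2 of 32 groups of 5 samples (16 probes in 2 genotypes) a single sample stood apart from the rest by Dixon's test. Chance does so in about 1 of 20 groups. WT replicate 2 had the lowest Acd value (ILMN_2930819, 11.85, with the other WT samples between 12.07 and 12.11), and WT replicate 1 the highest value of the dim Pot1a probe ILMN_1259980 (6.58, with the other WT samples between 6.47 and 6.49).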

How the results depend on the processing

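No shelterin probe passed the threshold under any of 24 alternatives in any of the 4 comparisons. The smallest adjusted p was 0.208, for Pot1a in p-Foxo3a samples without Terc-/- replicate 4. Of 798 recomputed values of the shelterin differences reported, 758 kept their direction and 40 changed sign. The number of all probes past the threshold rose from 0 in each comparison. Between Terc-/- and WT it was 1 with all 12 arrays as samples or with array weights, and 0 to 3 when 1 sample was left out (3 without WT replicate 2, 1 without Terc-/- replicate 3). For p-p53 against WT it was 2 with all arrays, 1 with background subtracted and 0 to 14 when 1 was left out (14 without Terc-/- replicate 3, 2 without the averaged 2 and 6). For p-Foxo3a against WT it was 0 to 335 (335 without replicate 4, 1 without replicate 1), and for p-p53 against p-Foxo3a 0 to 48 (48 without replicate 4, 18 without replicate 3, 1 without replicate 1 or the averaged 2 and 6). Omissions among p-p53 or p-Foxo3a samples leave 1 sample, assumed to vary like the other groups.

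Signs turned for the following differences, which include the widest between p-p53 and p-Foxo3a samples (Pot1a, -0.24). Between Terc-/- and WT, the values with all 12 arrays, with or without the replicate block, were 0.013 for Pot1a (ILMN_1259980), -0.0027 for Pot1b (ILMN_1227495), 0.14 for Ctc1, 0.054 for Stn1 and 0.058 for Ten1. Array weights gave 0.0031 for Pot1b (ILMN_2676040) and 0.020 for Stn1. Omitting 1 sample gave ranges of -0.084 to 0.024 for Terf2ip (ILMN_2604776), -0.076 to 0.00052 (ILMN_1235615), -0.046 to 0.045 for Pot1a (ILMN_1259980), -0.012 to 0.091 for Pot1b (ILMN_1227495), -0.085 to 0.030 (ILMN_2676040), -0.23 to 0.11 for Ctc1, -0.083 to 0.10 for Stn1 and -0.10 to 0.068 for Ten1. For p-p53 against WT, Terf2ip (ILMN_2610435) was -0.00060 with all arrays and -0.037 with the replicate block, and omissions gave -0.057 to 0.069 for it, -0.088 to 0.20 for Terf1 and -0.020 to 0.13 for Pot1a. For p-Foxo3a against WT they gave -0.073 to 0.22 for Terf1 and -0.19 to 0.014 for Acd (ILMN_2930819). For p-p53 against p-Foxo3a they gave -0.16 to 0.13 for Terf1, -0.12 to 0.049 for Terf2, -0.51 to 0.022 for Pot1a and -0.038 to 0.11 for Pot1b. The cause was not tested. Replicate numbers are shared by WT and Terc-/- arrays. Same-numbered arrays correlated between -0.23 and 0.12 after removal of the genotype means. Low correlations cannot exclude that a shared number marks a shared batch, and the numbers were not used as pairs in the main fits. With the replicate block 0 probes passed the threshold in each comparison. Among 15 pairs of shelterin genes 0 correlations passed with Spearman's rho, with genotype means removed or with all arrays.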
